A study of Mus musculus with 24 samples.

Results

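The comparison described here is the step from segment 3 to segment 4 of the wild-type mouse intestine, that is the entry into the last of 4 equal lengths, where the ileum lies. It rests on 6 of the 24 one-colour arrays of the series, 3 of segment 3 and 3 of segment 4, and covers 15267 genes. The mice were wild-type males of the strain C57BL/6, 3 to 3.5 months old, and received no treatment per the labels. Each intestine had been rinsed with 0.85% NaCl and divided into 4 parts of equal length, and the layer scraped from each part gave total RNA. The arrays numbered 1, 2 and 3 within a segment are called biological replicates in the labels, which do not say whether one number marks 1 mouse. The same step in Amacr-/- mice of the same strain, sex and age (3 arrays per segment) and the step from segment 2 to segment 3 in wild-type mice are used for comparison. Amacr is the gene of alpha-methylacyl-CoA racemase, which acts in bile acid synthesis and in branched-chain fatty acid breakdown.

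The ileum is the part of the small intestine that takes up conjugated bile acids again. The apical transporter Slc10a2 carries them into the enterocyte, the binding protein Fabp6 holds them in the cytosol, and the dimer of Slc51a and Slc51b exports them to the portal blood. The bile acid receptor FXR, encoded by Nr1h4, senses them on the way and drives Fgf15, a hormone that lowers bile acid synthesis in the liver. Digestion and uptake of sugars and fat take place mainly in the jejunum, which lies above it.

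All values are log2 signals, on which a difference of 1 is a doubling. A gene is said to have risen or fallen only where limma gave an adjusted p under 0.05 over all genes. The scraped layer is labelled endothelial, and its defining markers were those of epithelium. The mean of 12 epithelial markers, Epcam and Vil1 among them, lay between 12.82 and 12.89 on the segment 3 arrays and between 12.94 and 13.10 on those of segment 4. The mean of 10 markers of vessel endothelium, such as Pecam1 and Cdh5, lay between 4.89 and 5.09 and between 4.93 and 5.0. Arrays within a group correlated over genes at 0.987 to 0.992 in segment 3 and at 0.989 to 0.994 in segment 4. Array 3 of segment 4 stood nearest to segment 3: among the genes that fell, it was the highest of the segment 4 arrays for 306 of 391, and among those that rose, it was the lowest for 172 of 296. Its median distance from the segment 3 mean over the falling genes was -0.45, against -0.71 for array 1 and -0.62 for array 2. In segment 3, array 3 was the highest of its group for 177 of the 296 rises. Arrays 1 and 3 of segment 3 were the lowest for 175 and 165 of the 391 falls. With 3 arrays in a group, precision is limited throughout.

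Between segment 3 and segment 4 of the wild-type, 687 genes changed, 4.5% of those tested: 296 rose (1.94%) and 391 fell (2.56%). At least a 2-fold change was reached by 71 of the rises and 100 of the falls, and a 4-fold change by 13 and 15. The median change was 0.69 among the rises, -0.59 among the falls and -0.03 over all genes. Bright genes were called more often. A segment 3 mean of at least 10 was found for 35.5% of the falls and 12.5% of the rises, against 7.15% of all genes. The shares over all genes that are set beside gene lists below were not matched for signal level. For 1361 genes (8.91%) all segment 4 arrays lay above all segment 3 arrays, and for 1814 genes (11.9%) all lay below. Among the 687 genes called, the arrays of the 2 segments overlapped for 18. The count of calls rested on single arrays: it was 302 without array 1 and 338 without array 2 of segment 4, and 436 without array 1 and 340 without array 2 of segment 3. Leaving out array 3 of segment 4 gave 881 calls, and leaving out array 3 of segment 3 gave 930. Fitted on the 6 arrays alone the step had 215 calls, 171 of them among the 687.

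Segment 4 held the highest mean of the 4 wild-type segments for 284 of the 296 rises and the lowest for 380 of the 391 falls, a description that rests on the arrays that made the calls. A called change in the same direction from segment 2 to segment 3 was found for 35 of the rises and 75 of the falls. In RNA from a whole scraped layer, fewer cells of a type and less RNA per cell cannot be told apart.

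Genes of bile acid handling held the largest rise of all. A list for bile acid uptake and FXR had 15 measured genes, of which 5 rose (1.94% of all genes did) and 1 fell. The list's median change was 0.14, against -0.03 over all genes. The letters upstream of the start site are shown for 3 of the members that rose, because they hold short sequences of the kind that intestinal and sterol regulators bind. They are the 250 bases before the start in RefSeq for GRCm38.p6, read on the gene's own (minus) strand, with the matches in capitals.
Fabp6 (chr11:43601563-43601812): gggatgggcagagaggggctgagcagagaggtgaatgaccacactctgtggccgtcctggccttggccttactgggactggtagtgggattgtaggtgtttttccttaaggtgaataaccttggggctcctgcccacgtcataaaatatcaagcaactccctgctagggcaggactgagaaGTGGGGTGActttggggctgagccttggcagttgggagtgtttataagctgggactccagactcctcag
Slc10a2 (chr8:5105288-5105537): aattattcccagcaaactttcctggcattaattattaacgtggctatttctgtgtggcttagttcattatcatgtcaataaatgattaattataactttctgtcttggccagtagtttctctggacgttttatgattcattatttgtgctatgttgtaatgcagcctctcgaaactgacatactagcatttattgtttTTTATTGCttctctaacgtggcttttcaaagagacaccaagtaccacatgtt
Nr1h4 (chr10:89506659-89506908): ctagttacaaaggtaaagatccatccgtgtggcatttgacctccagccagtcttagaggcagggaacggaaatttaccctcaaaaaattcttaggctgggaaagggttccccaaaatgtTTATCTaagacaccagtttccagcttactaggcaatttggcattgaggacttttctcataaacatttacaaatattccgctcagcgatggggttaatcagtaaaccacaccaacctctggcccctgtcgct

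Slc10a2 matched GNAATAAA, of the type bound by CDX factors, on the other strand at -52 to -45, as did 2.92% of 12273 measured promoters and 2.97% of 236 promoters of genes that rose. Nr1h4 matched AGATAA, of the type bound by GATA factors, on the other strand at -131 to -126 (7.15% of all and 4.66% of the rises). Fabp6 matched TCACNCCAC, of the sterol regulatory element type, on the other strand at -69 to -61 (0.994% and 1.27%). Both strands were searched, also for CAAAGTCCA of the HNF4 type (0.35% and 0.847%), and none of these 4 motifs was found upstream of Slc51a, Slc51b or Nr1i2. Among 326 promoters of genes that fell, the CDX, GATA, sterol and HNF4 types were found in 2.45%, 5.83%, 2.45% and 1.23%. The sterol type was found in 0 of 12 promoters of a list of cholesterol synthesis genes. A match describes the letters and shows no binding.

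Slc10a2 read 7.58, 6.90 and 6.69 in segment 3 and 11.53, 11.13 and 11.40 in segment 4. The arrays were far apart, with each segment 4 array above 11 and each segment 3 array below 8. The rise of 4.30 log2 (SE 0.23), or 19.7-fold, had a limma adjusted p of 1.65e-09 and was the largest rise among all genes tested. Slc10a2 had been at 4.40 in segment 1 and 4.49 in segment 2, so that segment 3 held an intermediate level.

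Fabp6 followed another course. It read 12.71, 12.12 and 11.79 in segment 3 and 14.66, 14.50 and 14.32 in segment 4, where it came close to 14.74, the highest value of the whole table. Its rise of 2.29 (SE 0.38, limma adjusted p 0.000973) came after a rise of 7.98 from segment 2, where it had averaged 4.22. The gene was thus already abundant in segment 3, and the division into 4 equal lengths placed the onset of Fabp6 before the segment 3 to 4 boundary.

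The exporter subunits rose less, from a higher start. Slc51a read 11.38, 11.29 and 11.33 and then 12.55, 12.44 and 12.42, a rise of 1.14 (SE 0.15, limma adjusted p 8.79e-05). Its partner Slc51b read 11.53, 10.84 and 10.52 and then 12.44, 11.98 and 11.99, a rise of 1.17 (SE 0.23, adjusted p 0.00371). Neither pair of groups overlapped, and the changes of the 2 subunits differed by less than either SE. The alternative basolateral exporter Abcc3 changed by 0.65 (adjusted p 0.273), Abcc4 by 0.14 (0.745), and the apical exporter Abcc2 by -0.99 (0.19), none of which passed the test.

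The receptor Nr1h4 read 8.24, 8.14 and 8.62 in segment 3 and 10.52, 10.24 and 9.81 in segment 4. This was a rise of 1.86, 3.62-fold (SE 0.23, limma adjusted p 7.02e-05), and the groups stood clear of each other. Its binding partner Rxra changed by 0.02 (adjusted p 0.92). Fgf15, a target of FXR, read 6.22, 6.43 and 7.54 and then 8.88, 10.04 and 7.81. Every segment 4 array was higher, but the spread was wide, and the change of 2.18 (SE 0.64) had an adjusted p of 0.0575 and missed the threshold. Fgf15 passed it without array 3 of segment 4 (adjusted p 0.0207) or of segment 3 (0.0345), with array weights (0.00607) and among genes with a mean of at least 5 (0.0436) or 6 (0.036). Its adjusted p reached 0.292 without array 2 of segment 4. Nr0b2, which encodes the repressor SHP and is another target of FXR, changed by -0.05 (adjusted p 0.956). The receptor pair of Fgf15, which acts in the liver, was near the low end of the arrays: Fgfr4 changed by 0.01 and Klb by -0.03. Nr1i2, the xenobiotic receptor PXR, was the only list member that fell, by 0.60 (adjusted p 0.0202). That call was lost without array 2 or 3 of segment 3 and without any 1 array of segment 4, with an adjusted p of up to 0.0649. The vitamin D receptor Vdr, which also binds a bile acid, changed by -0.08 (adjusted p 0.797).

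**Figure D1:**
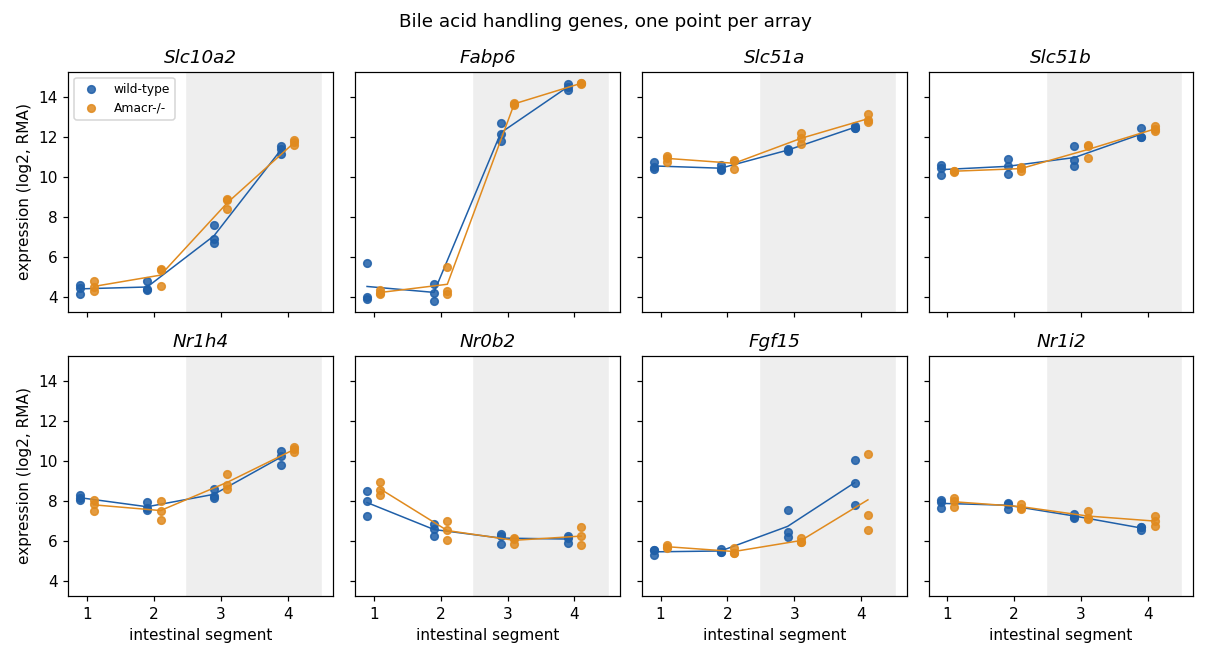
Signal (log2) of 8 bile acid genes in the 4 segments, 1 point per array, with lines through the means of wild-type (blue) and Amacr-/- (orange) arrays; segments 3 and 4 are shaded. Slc10a2 climbs by 4.30 between wild-type segments 3 and 4, while Fabp6 makes most of its climb, 7.98, between segments 2 and 3.

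Several other transporters made large steps into segment 4. Slc13a1, the sodium-sulfate cotransporter, read 9.70, 9.28 and 9.45 and then 13.30, 12.57 and 12.72, a rise of 3.39 (SE 0.36, limma adjusted p 1.87e-05). It had been at 12.80 in segment 1 and 9.66 in segment 2, so that both ends of the intestine were high and the middle was low. Suox, which makes sulfate from sulfite, rose by 2.94 (adjusted p 6.37e-09) from arrays of 9.60, 9.50 and 9.03 to arrays of 12.65, 12.30 and 11.99. Slc6a14, a transporter of neutral and cationic amino acids, was near the low end in segment 3 (4.10, 3.91 and 3.81) and read 8.90, 6.74 and 6.07 in segment 4. It rose by 3.30 (SE 0.46, adjusted p 0.0002). Its segment 4 arrays were all higher but differed among themselves by almost as much as the step.

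Slc40a1, the iron exporter ferroportin, also ran high, low and high again, with means of 11.22, 7.08, 6.30 and 8.93 from segment 1 to segment 4. It read 6.16, 5.98 and 6.76 and then 9.47, 9.25 and 8.06, a rise of 2.63 (SE 0.71, limma adjusted p 0.038). This call was lost without array 1 or 2 of either segment. Cldn2, a claudin that forms a cation pore between cells, rose by 2.64 (adjusted p 0.0013) from 7.46, 6.75 and 7.87 to 10.62, 9.59 and 9.78. Among the other large rises were Bex1 (2.54), ccdc198 (2.45), the fatty acid desaturase Scd2 (2.35), Ddah1, which degrades methylated arginines (2.22), and Fgfbp1, a binding protein of fibroblast growth factors (2.16). The call of Fgfbp1 was lost without array 1 of segment 4 or array 2 of segment 3.

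The largest fall was that of Cyp2b10, a cytochrome P450 that acts on foreign compounds. It read 10.32, 10.81 and 10.10 and then 6.37, 6.93 and 8.89. Its fall of 3.01 log2 (SE 0.45, limma adjusted p 0.000365) was 8.07-fold. Nr1i3, which encodes the receptor CAR, the known inducer of Cyp2b10, fell by 2.14 (adjusted p 5.91e-05), from 7.90, 7.65 and 7.59 to 5.14, 5.24 and 6.33. Enpp3, a surface enzyme that cleaves nucleotides, read 12.22, 12.37 and 11.44 and then 8.30, 8.64 and 10.38, a fall of 2.90 (adjusted p 5.1e-05). In all 3 genes array 3 of segment 4 was the highest of its group, and no array of the 2 segments overlapped. The lipid deacetylase Aadac fell by 2.71, the glucuronosyltransferase Ugt2a3 fell by 2.59, the vitamin C transporter Slc23a1 fell by 2.51, and Prxl2a fell by 2.48. Acot12, a thioesterase of acetyl-CoA, fell by 2.22, and Leap2, a peptide that blocks the ghrelin receptor, by 2.17. When limma was run on the 6 arrays alone, only Slc23a1 and Nr1i3 of the 12 largest falls kept their calls. Cyp2b10 had an adjusted p of 0.0583 there. Of the 12 largest rises, only Slc6a14 and Fgfbp1 lost their calls in that fit.

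**Figure D2:**
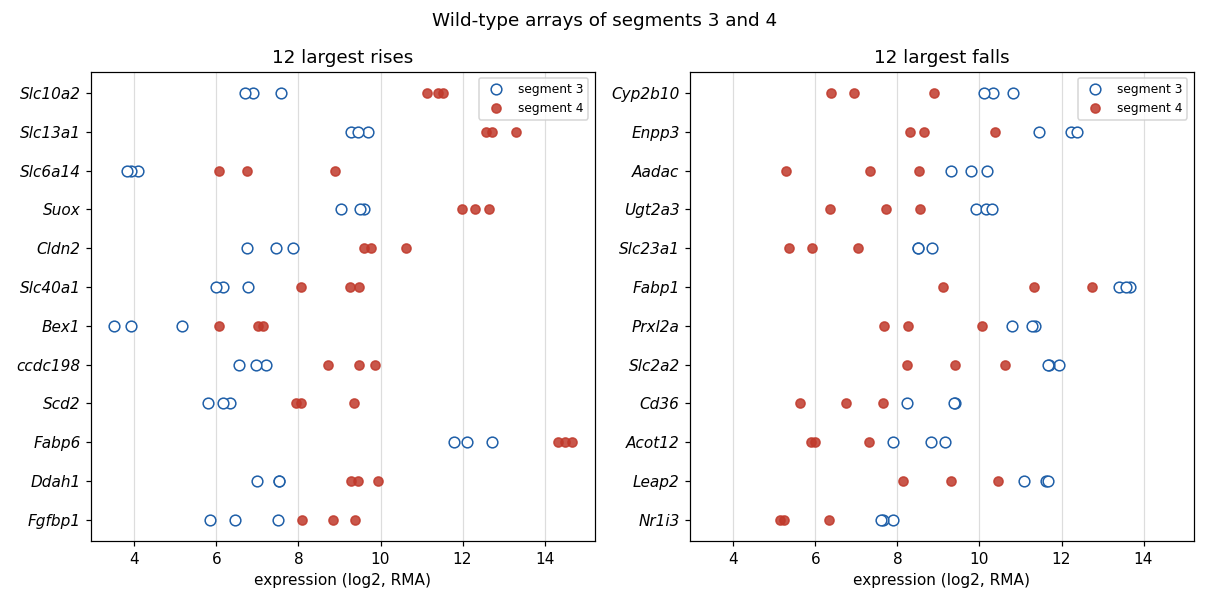
Signal (log2) of the 12 largest rises (left) and 12 largest falls (right) on the 6 wild-type arrays, open circles for segment 3 and filled circles for segment 4. Slc10a2 separates most widely among the rises, and the segment 4 arrays of falling genes such as Fabp1 (9.12 to 12.75) spread more than those of segment 3 (13.39 to 13.66).

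Many genes of fat absorption fell. All 21 measured genes on a list of fat uptake and chylomicron assembly were lower in segment 4, as were 8793 of all 15267 genes. Of the 21, 10 fell past the test (2.56% of all genes did) and 0 rose. The median change was -0.48, against -0.03 over all genes. Cd36, which takes up fatty acids at the membrane, read 8.24, 9.41 and 9.38 and then 5.63, 6.74 and 7.66, a fall of 2.33 (limma adjusted p 0.00903). Fabp1, a fatty acid binding protein of the cytosol, read 13.39, 13.66 and 13.58 and then 9.12, 11.32 and 12.75. Its fall of 2.48 (adjusted p 0.0061) was 1.51 without array 1 of segment 4, the lowest of the group. The call of Cd36 was lost without that array or without array 2 of segment 3.

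Of the apolipoproteins that coat the chylomicron, Apoa4 fell by 1.24 (limma adjusted p 0.000705), from 14.19, 14.37 and 14.17 to 12.63, 12.77 and 13.60. Apoc3 fell by 1.54 (adjusted p 0.000192), from 13.52, 13.81 and 13.59 to 11.78, 11.69 and 12.83. Mttp, which loads lipid onto apolipoprotein B, fell by 0.56, and Dgat1, which makes triglyceride, by 0.48. Fabp2 and Apoa1 were among the brightest genes of both segments and changed by -0.08 and -0.12 (adjusted p 0.522 and 0.245). The call count of the list was 7 to 11 with 1 array left out, but 1 when limma was run on the 6 arrays alone.

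Most genes of sugar digestion and uptake fell as well. Of 11 measured genes 7 fell (2.56% of all genes did) and 0 rose, with a median of -0.82. Slc2a2, the glucose transporter GLUT2, read 11.95, 11.70 and 11.68 and then 8.24, 9.40 and 10.63, a fall of 2.35 (limma adjusted p 0.000541). Lactase, Lct, fell by 1.83 (adjusted p 0.0106), trehalase, Treh, by 1.28 (0.00462), and the fructose transporter Slc2a5 by 1.07 (0.00903). The apical glucose transporter Slc5a1 fell by only 0.24 (adjusted p 0.0386), from a mean of 13.38. Without array 1 of segment 4, 3 of the 7 calls were made and the fall of Lct was 1.16. On the 6 arrays alone 1 call was made.

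Genes of cholesterol synthesis changed the other way. Of 14 measured enzymes 8 rose (1.94% of all genes did) and 0 fell, with a median of 0.85. Cyp51, the lanosterol demethylase, read 7.68, 7.82 and 8.02 and then 10.10, 9.28 and 9.77, a rise of 1.88 (limma adjusted p 0.000376). Sqle, the squalene epoxidase, read 9.28, 8.85 and 8.49 and then 11.15, 10.32 and 10.42, a rise of 1.76 (adjusted p 0.00111). Fdft1, which makes squalene, rose by 1.61 (9.62e-05) and Msmo1 by 1.25 (0.00184). No arrays of the 2 segments overlapped for these enzymes. The other called members were Nsdhl (1.01), Tm7sf2 (1.00), Lss (0.95) and Hsd17b7 (0.74). The list gave 8 or 9 calls with 1 array left out and 6 on the 6 arrays alone.

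Of 13 measured genes of fatty acid synthesis 4 rose (1.94% of all genes did) and 0 fell, with a median of 0.55. Scd2 read 6.33, 6.16 and 5.79 and then 9.35, 7.94 and 8.05 (rise 2.35, limma adjusted p 1.75e-05). Fads2, Elovl1 and Acly rose by 0.89, 0.67 and 0.58 (adjusted p 0.0478, 0.0117 and 0.0195). The count was 1 without array 2 of segment 3 or array 1 of segment 4, and 2 without array 1 of segment 3 or array 2 of segment 4. Genes that import, esterify or export sterols gave 0 calls of 8, with a median of -0.31. Npc1l1, the cholesterol importer, changed by -0.15 (adjusted p 0.684), and Abca1, an exporter, by -1.16 (0.121).

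**Figure D3:**
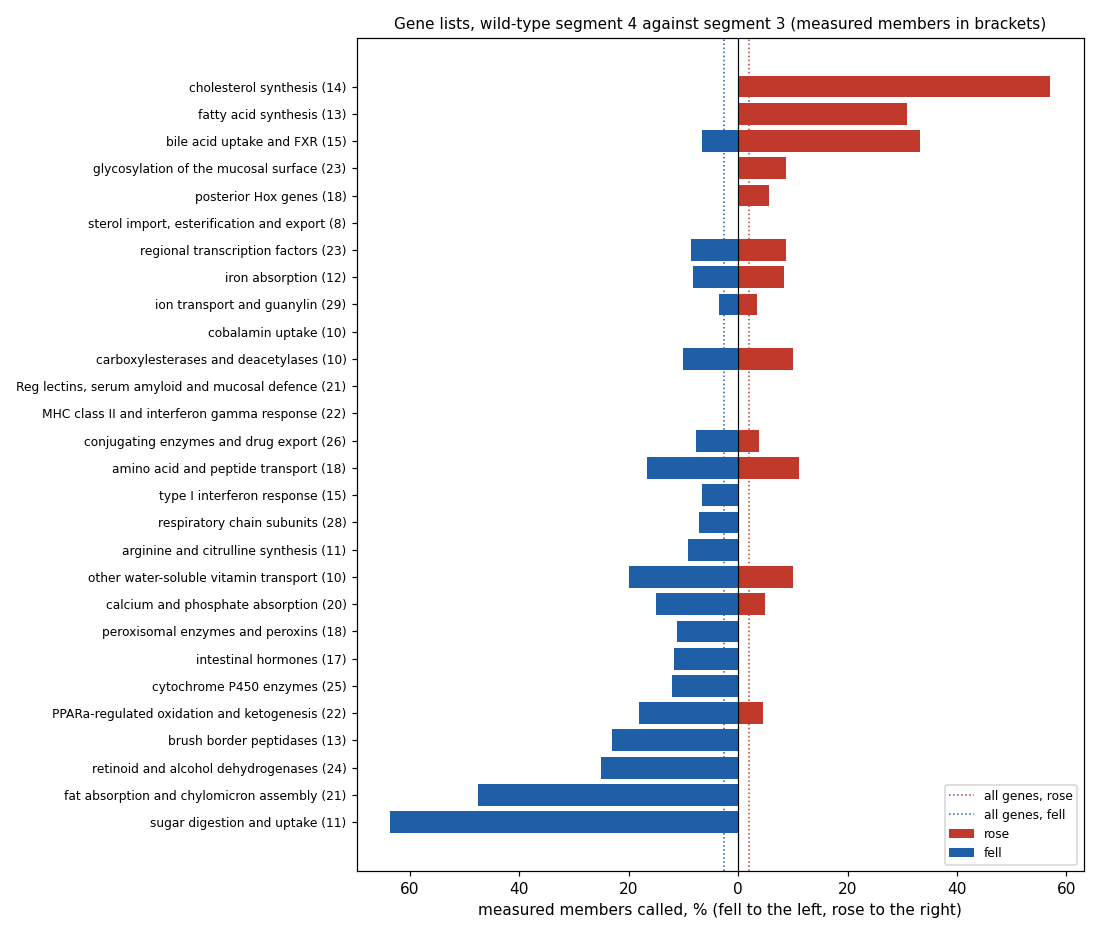
Share of the measured members of 28 gene lists that rose (red, to the right) or fell (blue, to the left), in percent, with dotted lines at the shares over all genes (1.94% and 2.56%). Sugar digestion (7 of 11) and fat absorption (10 of 21) reach furthest left and cholesterol synthesis (8 of 14) furthest right.

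The retinoid and alcohol dehydrogenases fell in part, 6 of 24 (2.56% of all genes fell) with 0 rises and a median of -0.13. Adh6a fell by 1.89 (limma adjusted p 0.000316), Hsd17b6 by 1.75 (0.000104), Adh1 by 1.73 (0.0328) and the retinol binding protein Rbp2 by 1.70 (0.000163). Rbp2 read 13.21, 13.16 and 13.04 and then 10.87, 11.37 and 12.08, with no overlap. The list's count was 3 without array 1 or without array 2 of segment 4, and the call of Adh1 was lost without array 1 or 2 of segment 4 or array 2 or 3 of segment 3. Of 25 cytochrome P450 genes 3 fell: Cyp2b10, Cyp4b1 (1.13) and Cyp4v3 (1.12). That list had 7 falls without array 3 of segment 4 and 0 on the 6 arrays alone. Of 26 genes of conjugation and drug export, Ugt2a3 fell by 2.59 and Sult1b1 by 0.39, and the exporter Abcg2 rose by 0.65. The falls there were also 7 without array 3 of segment 4 and 0 on the 6 arrays alone, and 1 without array 1 or 2 of segment 4 or array 2 of segment 3. Among 10 carboxylesterases and deacetylases, Aadac fell and Ces1f rose by 1.31 (adjusted p 0.041). The call of Ces1f was lost without any 1 of the 6 arrays other than array 2 of segment 4 (adjusted p up to 0.202).

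Peptide and amino acid handling was split, beside 1.94% of all genes that rose and 2.56% that fell. Of 13 brush border peptidases, Mme (neprilysin) fell by 1.45, the angiotensin-converting enzyme Ace by 1.40 and Pepd by 0.33, and 0 rose. The call of Pepd was lost without array 1 or 2 of either segment. The aminopeptidases Anpep and Enpep changed by 0.22 and 0.23 (limma adjusted p 0.464 and 0.119). Among 18 amino acid and peptide transporters, Slc6a14 and the glutamate transporter Slc1a1 (1.51) rose, and Slc7a8 (1.69), Slc43a2 (0.76) and Slc3a2 (0.55) fell. The call of Slc1a1 was lost without array 1 of segment 4 or array 2 of segment 3.

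Uptake of vitamins and minerals was mixed too, set against the same shares of all genes. None of 10 genes of cobalamin (vitamin B12) uptake passed the test, although the ileum is its known site of uptake. With array 3 of segment 3 or array 3 of segment 4 left out, 1 of them was called as a rise. In the knockout step 1 was called as a rise. Cubn, which encodes the receptor cubilin, read 10.81, 12 and 12.14 in segment 3 and 11.66, 11.94 and 12.66 in segment 4, so that the groups overlapped (change 0.44, limma adjusted p 0.758). Its partner Amn changed by -0.22 (adjusted p 0.492). Cubn and Amn were named after their values were seen. Slc46a1, the proton-coupled folate transporter, fell by 1.70 (adjusted p 0.0119), and Slc44a4, which carries a form of thiamine, rose by 0.87 (0.000876). The call of Slc46a1 was lost without array 1 or 2 of segment 4 or array 2 of segment 3. On a list of 20 genes of calcium and phosphate absorption, Cldn2 rose, and Enpp3, the claudin Cldn15 (0.62) and the alkaline phosphatase Alpi (0.48) fell. The call of Alpi was lost without array 1 or 2 of segment 4 or array 2 of segment 3.

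Regional regulators and hormones changed in a few members. Gata4, a transcription factor of the upper small intestine, read 7.61, 7.68 and 7.47 and then 6.18, 6.45 and 6.79, a fall of 1.11 (limma adjusted p 2.02e-05). Its cofactor Zfpm1 fell by 0.88 (4.71e-05). Foxa1 rose by 0.67 (0.00456), so that with Nr1h4 a total of 2 of 23 regional transcription factors rose and 2 fell. Over all genes 1.94% rose and 2.56% fell. Gata5, Gata6, Cdx1, Cdx2 and Hnf4a did not pass the test, with changes of -0.07, -0.47, 0.47, 0.08 and 0.22. Of 18 Hox genes, Hoxb6 rose by 1.26 (0.0207), a call that was lost without array 2 or 3 of segment 3 or array 1 or 2 of segment 4.

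Of 17 hormone genes 2 fell (2.56% of all genes did). Gip, the incretin of the upper intestine, read 10.40, 10.86 and 10.55 and then 7.64, 8.53 and 9.31, with no overlap. It fell by 2.11 (limma adjusted p 5.1e-05). Cck fell by 0.97 (0.0232), a call that was lost without array 1 or 2 of either segment (adjusted p up to 0.126). Gcg, the glucagon-like peptide gene, changed by 1.14 (adjusted p 0.107), and Pyy and Nts by 0.40 and 0.04.

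Shorter counts complete the lists, beside 1.94% of all genes that rose and 2.56% that fell. Among genes of ion transport, the carbonic anhydrase Car12 rose by 1.63 (limma adjusted p 1.87e-05) and Car2 fell by 1.75 (0.0171), of 29 measured. The call of Car2 was lost without array 1 or 2 of segment 4 or array 1 of segment 3. Of 23 genes of glycosylation, Gcnt1 rose by 1.84 and Galnt3 by 0.51, the latter not called without array 1 of either segment. On a list of 22 genes of PPARa-regulated oxidation, Crat (0.47), Ehhadh (0.45), Acadvl (0.40) and Decr1 (0.38) fell and Slc25a20 (0.43) rose. The falls of this list were 1 to 5 with 1 array left out and 0 on the 6 arrays alone. The call of Slc25a20 was lost without array 1 or 2 of segment 4 or array 1 or 3 of segment 3. It was also lost on the 6 arrays alone and under median centring. The peroxisomal genes Phyh (0.55) and Pex16 (0.36) fell, of 18, as did Ndufb3 (0.42) and Ndufv1 (0.27) of 28 respiratory chain subunits. The peroxisomal list had 0 calls without array 1 of either segment, without array 2 of segment 3 and on the 6 arrays alone. The respiratory chain list had 0 without array 1 of segment 3, without array 2 of segment 4 and on the 6 arrays alone, and Ndufv1 (adjusted p 0.0491) lost its call under 10 of 17 alternatives. Of 11 genes of arginine and citrulline synthesis Arg2 fell by 1.06, and of 15 type I interferon response genes Ifi35 fell by 0.42, a call that was lost without array 1 or 2 of segment 3 or array 2 of segment 4. No member passed the test among 22 genes of MHC class II and the interferon gamma response (median 0.22) or among 21 Reg lectins, serum amyloid and defence genes (median 0.25). In the latter list Saa1 read 8.83, 7.62 and 6.82 and then 12.75, 11.78 and 8.64, a change of 3.30 with an adjusted p of 0.0698.

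Markers of other cells moved with the step, and their part in the results above was not tested. All 24 measured markers of proliferating cells were higher in segment 4, with a median of 0.81. Of all 15267 genes, 6407 were higher and 8793 lower. The mean of the list was 5.77 to 6.59 in segment 3 and 6.69 to 7.32 in segment 4. Of them, 3 passed the test as rises (1.94% of all genes did), Mcm4 (0.85), Rrm1 (0.72) and Aurkb (0.59). The count was 0 without array 1 or 2 of either segment and 9 without array 3 of segment 3.

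B cell markers were higher in 9 of 9, with a median of 0.90 and 0 calls, and their mean was 5.31 to 5.94 against 5.97 to 6.92. Fat cell markers had means of 5.93 to 6.05 against 6.89 to 7.05, and 5 of 7 were higher. Adipoq, which defines fat cells, read 4.74, 4.66 and 4.82 and then 7.13, 7.69 and 7.12, without overlap. Its limma adjusted p was 0.381, with an SE of 1.46 from the spread within all groups, among them wild-type segment 2, where Adipoq ran from 4.33 to 10.08. Cidec, which is on the fat cell list and coats lipid droplets, fell by 1.43 (adjusted p 0.00957), a call that was lost without array 1 or 2 of either segment. On the 6 arrays alone, 4 of the 7 fat cell markers were called as rises and 0 as falls, against 0 and 1 with all arrays in the fit. The 3 measured Paneth cell markers had a median of 1.17, with means of 8.83 to 11.48 and 10.57 to 11.91 that overlapped. Goblet cell markers were higher in 10 of 11 (median 0.25), 2 of them called as rises (1.94% of all genes were). That count was 0 without array 1 or 2 of either segment and on the 6 arrays alone. Smooth muscle and exocrine pancreas markers had medians of -0.08 and -0.13, with 0 calls.

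**Figure D4:**
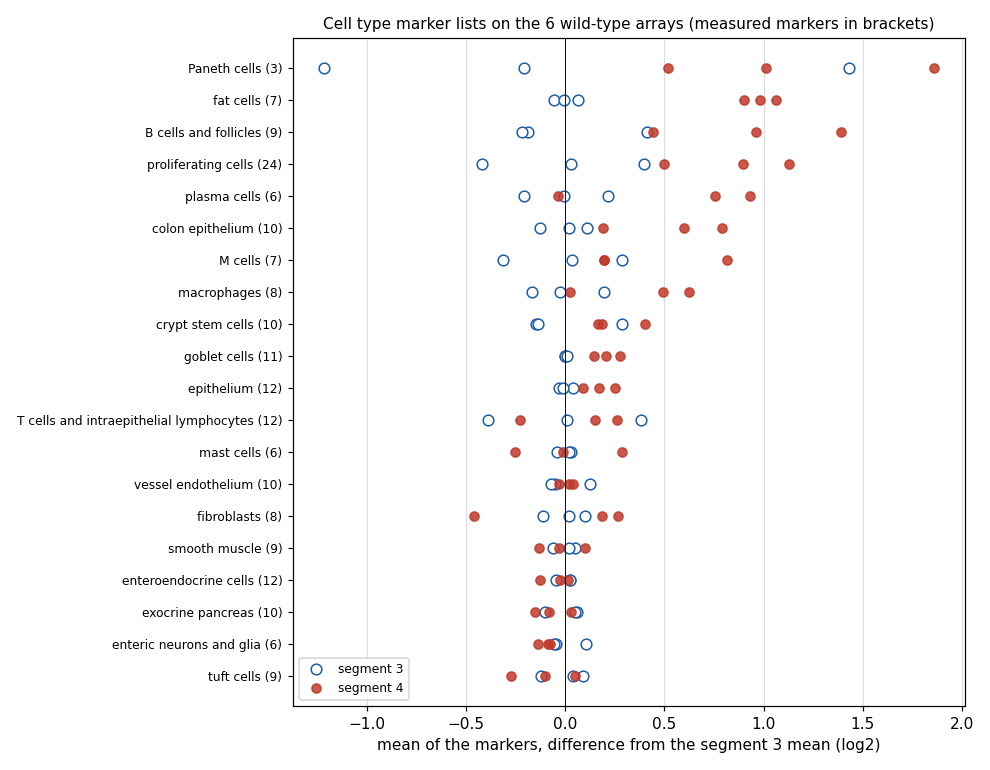
Mean signal of each cell type marker list on the 6 wild-type arrays, as the difference from its segment 3 mean (log2), 1 point per array. The fat, proliferating, B and goblet cell lists and those of epithelium and colon epithelium lie higher in segment 4 with no overlap, that of enteric neurons and glia lies lower with none, and the others overlap. The epithelial list moves by less than 0.3.

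The same step was measured on the arrays of Amacr-/- mice, which hold other samples but entered the fit's estimate of spread, so the calls of both genotypes share that estimate. Amacr itself averaged 7.26 and 7.03 in wild-type segments 3 and 4 and 5.31 and 4.96 in those of the knockout. In the knockout 540 genes changed (3.54%), 202 up (1.32%) and 338 down (2.21%). Fitted on its own 6 arrays it had 276 calls. Of the wild-type rises 128 were also called in the knockout, which is 43.2% of the wild-type rises and 63.4% of those of the knockout. Of the falls 228 were called in both, 58.3% and 67.5%. No gene was called in opposite directions. The knockout change was above 0 for 295 of the 296 wild-type rises and below 0 for 388 of the 391 falls, with medians of 0.49 and -0.52, against 0.69 and -0.59 in the wild-type, by whose changes these genes were chosen. Over all genes the 2 steps correlated at r = 0.75, a description across 15267 genes that share arrays and are not independent replicates. The knockout count was 311 without array 1 of segment 4 or array 3 of segment 3, 312 without array 2 of segment 4 and 336 without array 1 of segment 3. On array 3 of knockout segment 3 the fat cell markers averaged 10.25, against 5.61 and 6.29 on the other arrays of its group, and the part of this in the knockout step was not tested gene by gene.

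The difference between the genotypes' steps was called for 0 of 15267 genes in limma, with 284 at an unadjusted p under 0.05. Slc10a2 rose by 3.01 in the knockout, 1.29 less than in the wild-type (SE 0.33, unadjusted p 0.000954, adjusted p 1). Its knockout arrays of segment 3 were 8.39, 8.86 and 8.88, all above the wild-type ones, and its arrays of segment 4 were 11.57, 11.72 and 11.86. Fabp6 changed by 1.03 in the knockout (adjusted p 0.172), from arrays of 13.66, 13.68 and 13.60 that were above all wild-type segment 3 arrays. Its knockout arrays of segment 4, 14.63 to 14.70, lay near 14.74, the highest value of the table. The knockout rise of Fabp6 may thus be understated, and its size beside that of the wild-type is not settled. For Slc51a, Slc51b and Nr1h4 the knockout rises were 0.98, 1.03 and 1.64, and the differences from the wild-type steps were -0.16 (SE 0.21), -0.15 (0.32) and -0.21 (0.33).

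**Figure D5:**
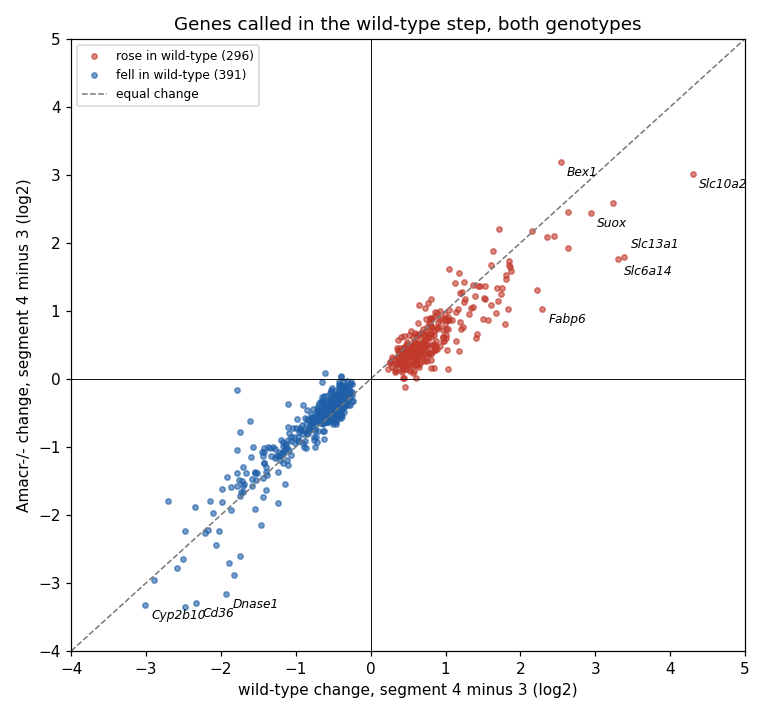
Change from segment 3 to 4 in Amacr-/- mice (vertical) against the wild-type change (horizontal), log2, for the 687 genes called in the wild-type; red points rose and blue points fell, and the dashed line marks equal change. The points share the direction of the line for nearly all genes, and the medians of the rises (0.49 in the knockout, 0.69 in the wild-type) and falls (-0.52 and -0.59) lie nearer to 0 in the knockout. The genes were chosen by their wild-type changes, so the medians do not compare the genotypes evenly. Slc10a2 (4.30 against 3.01) lies below the line.

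The preceding wild-type step, from segment 2 to segment 3, shares the segment 3 arrays, so its values are only set beside those above. It held 314 calls (2.06%), 110 up (0.721%) and 204 down (1.34%), and 481 with the replicate number as a block. It had 159 and 201 calls without arrays 1 and 2 of segment 3, and 152 and 119 without arrays 1 and 2 of segment 2. A test of the difference between the 2 steps in limma called 7 genes (0.0459%), 2 higher in the later step (0.0131%) and 5 lower (0.0328%). The count was 40 without array 3 of segment 4, 12 without array 3 and 4 without array 2 of segment 3. The step into segment 4 was the higher one for Slc13a1 (by 3.57, adjusted p 0.0374) and Ces1f (by 4.02, adjusted p 0.00923). The call of the Ces1f rise itself rested on single arrays, as given above. Ces1f had means of 11.94, 10.62, 7.92 and 9.23 from segment 1 to segment 4.

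The other 5 genes rose on entering segment 3 and, but for Pld2, changed less in the later step. Fabp6 rose by 7.98 and then 2.29 (difference -5.70, limma adjusted p 0.000277). Its segment 4 arrays (14.32 to 14.66) lay near the highest value of the table, 14.74, and its segment 2 mean of 4.22 near the low end, so both steps may be understated and the size of their difference is not settled. Plb1, a phospholipase of the brush border, went from 6.06 to 11.77 and then 11.13 (difference -6.34, adjusted p 9.82e-05). Fam151a (-4.52), the adenylate cyclase Adcy8 (-2.41) and the phospholipase Pld2 (-0.79) had the same order. Of these, Pld2 rose by 0.38 and then fell by 0.41 (adjusted p 0.00428), with means of 7.14, 7.52 and 7.11. Anxa4 and Rnf208 had the same course, rising by 0.51 and 0.62 and then falling by 0.40 and 0.46, and were named because only 3 of the 391 falls had been called as rises in the step before.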

How the data were processed

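The values are the authors' deposited log2 signals of 24 biotin-labelled one-colour arrays, for which the submitters' processing notes name RMA (version not given in the sources used here). The log base is not stated, and folds assume 2. RMA sets all arrays to one distribution, so a change in total RNA is removed and low values are compressed. Values ran from 2.92 to 14.74 and array medians from 6.06 to 6.16. Of 16556 probe sets, 15270 named 1 gene, 64 were controls and 1222 had no name here. The brighter probe set was kept for 3 genes with 2, which left 15267 genes.

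A mean per group (8 groups of 3) was fitted with limma 3.58.1 in R 4.3.3 (lmFit, eBayes, 16 residual and 3.35 prior degrees of freedom), and p-values were adjusted by Benjamini-Hochberg over all genes. The fit was tried on simulated data for the wild-type step from segment 3 to 4 alone, with 200 genes changed and independent noise on each array. Named were the 12 largest called rises and falls (passing over 1 clone name), every bile acid gene, up to 4 called members per list and direction, and up to 5 per direction for the difference of steps. Genes named outside this rule were picked after their values were seen, as were the motifs and the counts of solute carriers. The comparison, the 28 gene lists and the 21 marker lists were chosen with earlier results of these data known. Same-numbered wild-type arrays of segments 2 and 3 deviated together (r = 0.52, 0.39 and 0.38), so the count of that step is also given with the replicate number as a block.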

Additional observations from a re-analysis of the deposited data

How the results depend on the processing

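The wild-type step gave 687 calls (296 up, 391 down), and 2158 (1078 and 1080) with array weights, 215 (111 and 104) when fitted on its 6 arrays alone, 311 (109 and 202) at an adjusted p under 0.01 and 171 (71 and 100) at 2-fold or more. With 1 array left out it gave 302 to 930 calls, 114 to 486 up and 188 to 493 down. Median centring gave 691, a second quantile normalization 715, minimum means of 5 and 6 gave 758 and 790, all probe sets 724, eBayes with trend and robust 668, and leaving out the 6 arrays high in fat, muscle or pancreas markers 743. None of these marker-high arrays belongs to wild-type segment 3 or 4. The changes of the wild-type step therefore stayed the same in that setting, and only the estimate of spread differed. It cannot show what other tissue contributed to this step. Of the 687 genes, 635 remained called under median centring and 171 on the 6 arrays alone. For the knockout step (540) the counts were 1075 with array weights, 276 on its arrays alone, 288 without the marker-high arrays, 237 at 0.01, 146 at 2-fold, and 311 to 439 with 1 array left out. The difference between genotypes stayed at 0 calls under every setting run. The step from segment 2 to 3 (314) gave 675, 128, 120 at 0.01, 83 at 2-fold, 481 with the replicate block, and 119 to 319. The difference of steps (7) gave 43 with weights, 23 without the marker-high arrays and 4 to 40.

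The replicate numbers did not pair all wild-type arrays of segments 3 and 4. Same-numbered arrays correlated in their deviations at 0.48, -0.29 and -0.03, and only number 1 correlated best with its own number. Array 2 of segment 3 correlated at 0.45 with array 3 of segment 4, and array 3 of segment 3 at 0.42 with array 2 of segment 4. Whether 1 mouse carries different numbers in the 2 segments was not tested, and no block with numbers 2 and 3 crossed was fitted. With the replicate block the wild-type step gave 924 calls (372 up, 552 down), the knockout step 693 and the difference of steps 8. Of 92 named genes called, 28, Slc10a2, Fabp6 and Nr1h4 among them, were called under every alternative, and 64 were lost under at least 1. Signs turned only for uncalled changes near 0: Fgfr4 (-0.03 median centring, -0.02 without array 1 of segment 4), Rxra (-0.01 median centring, -0.002 array weights, -0.03 without array 1 of segment 3), and Klb (0.004 after quantile normalization). With 1 array left out Klb ran from -0.11 to 0.07 (0.02 without array 3 of segment 4), Adcy8 from -0.28 to 0.04 (0.02 without array 1 of segment 4), Nr0b2 from -0.18 to 0.05 (0.04 without array 3 of segment 4), Vdr from -0.19 to 0.003, Rxra from -0.03 to 0.06 and Fgfr4 from -0.02 to 0.02. Where an alternative has no fewer genes or arrays by construction, the cause was not tested.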

Other observations

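Solute carriers as a family changed often: of 322 measured, 16 rose and 27 fell, 13.4%, against 4.5% of all genes. The share over all genes was not matched for signal level, and bright genes were called more often. The family was counted after its members' values had been seen, and so were the genes below. Of 12 measured genes of the Slc5 family of sodium-coupled carriers, 6 fell, Slc5a1 among them, and 0 rose (2.56% of all genes fell). Slc5a12, a lactate carrier, fell by 2.03 (limma adjusted p 0.0011), from 11.13, 10.97 and 10.88 to 8.08, 8.91 and 9.89. Slc5a4b fell by 1.92 (0.0153), Slc5a4a by 1.67 (0.0118), the inositol carrier Slc5a11 by 1.16 (0.000144) and Slc5a9 by 0.89 (0.000752). The zinc exporter Slc30a1 rose by 1.19 (adjusted p 0.000344), and the magnesium channel Trpm6 by 1.12 (0.00153). Cldn8, a claudin of tight epithelia, read 3.63, 3.68 and 4.21 and then 5.81, 6.11 and 4.76, a rise of 1.72 (0.00296).

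Asah2, the neutral ceramidase of the brush border, fell by 1.44 (limma adjusted p 5.91e-05), from 11.98, 11.98 and 11.70 to 10.01, 10.49 and 10.83. The sphingosine kinase Sphk1 fell by 1.44 (9.25e-06) and the sphingosine phosphate lyase Sgpl1 by 1.22 (0.000141). Sgpp1, a phosphatase that returns sphingosine phosphate to sphingosine, rose by 1.37 (0.00969). Dnase1 fell by 1.93 (7.93e-06) in the wild-type and by 3.17 in the knockout. Its difference between genotypes, -1.24, had an unadjusted p of 0.000157 and an adjusted p of 1. Npl, which breaks down sialic acid, had means of 6.13, 8.78, 10.10 and 8.04 from segment 1 to segment 4. It fell by 2.06 (0.0208), from 9.91, 10.18 and 10.20 to 6.77, 7.51 and 9.83.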
